A study of Mus musculus with 12 samples.

Results

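The RNA of collagen and laminin chains, fibronectin, the nidogens, perlecan and agrin was measured in cultured neural stem cells (NSCs) of newborn mice. The set held 60 of the 45792 genes listed in the deposited files. Its genes were taken by name, though the set was chosen with earlier results of these data known. It took in 44 collagen chains, 11 laminin chains, Fn1, Nid1, Nid2, Hspg2 (perlecan) and Agrn. Of these, 49 had enough reads to be tested, together with 15706 genes in all. The study grew NSCs from the forebrains of C57BL/6J (WT) pups and of pups without Ncf1, a cytosolic subunit of the superoxide-producing NADPH oxidase, on a C57BL/6J background. All cultures were kept in serum-free medium with EGF and FGF and were used at an early passage. Each of 3 groups had 4 libraries: untreated WT, Ncf1-/- given vehicle, and Ncf1-/- given recombinant mouse Igfbp2 at 48 h after plating, a dose that the labels give as 100 ng/ml and the methods put lower. RNA was collected 48 h later, so that the comparisons asked how the loss of Ncf1 and the addition of Igfbp2 moved these matrix genes.

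Collagens are built from 3 alpha chains wound into a triple helix. Fibrillar collagens (types I, II, III, V, XI) form banded fibres, and the fibril-associated types (IX, XII, XIV, XVI and their kin) coat them. Type IV collagen and the laminins, which are trimers of an alpha, a beta and a gamma chain, each form a network in basement membranes. Nidogens and perlecan link the networks, and agrin and fibronectin bind cell-surface receptors. In the forebrain, basement membrane surrounds the vessels and reaches the niche of the ventricular wall as thin branches, and laminin signals through integrins to NSCs.

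Levels are given as CPM, in which the expected counts of a library are divided by its total after scaling by TMM factors. A gene is said to have risen or fallen, or to be called, where the edgeR quasi-likelihood test gave a Benjamini-Hochberg adjusted p under 0.05 over the 15706 genes. Errors of log2 fold changes are standard errors. The 12 libraries held 18201622 to 34086554 expected counts, of which 0.129% to 0.223% fell on the 60 genes. The transcript of Ncf1 could not check the genotypes, since each library held 1 to 7 counts of it. Neural stem cell markers summed to 8746 to 9541 CPM in the 8 Ncf1-/- libraries and to 3740, 4044, 9711 and 5761 CPM in WT replicates 1 to 4. Gene by gene, most of this list went the other way from its sum. With vehicle against WT, 3 of the 12 stem cell markers were called higher and 8 lower (28.9% and 28.2% of all genes). Their median log2 fold change was -0.46. Oligodendrocyte lineage markers summed to 2200 to 2367 CPM in the Ncf1-/- libraries and to 11730, 12270, 3497 and 7442 CPM in the WT replicates. Astrocyte markers summed to 2470 to 3633 CPM in the Ncf1-/- libraries and 6539 to 11970 CPM in WT, and neuronal markers to 441 to 558 and 630 to 805 CPM. Within WT, replicates 1 and 2 thus lay close together in the stem cell and oligodendrocyte sums. Replicate 3 stood farthest from them, and replicate 4 lay between. Values without both replicates 3 and 4, a choice made after the data were seen, are given beside the calls that they change. The part of these markers in the results was not tested. The sum of 4 Y-linked genes was 105 to 116 CPM in the vehicle libraries and 7.80 to 9.18 CPM in all 4 Igfbp2 libraries, although the methods state that both came from the same pups. It was 107 to 118 CPM in WT replicates 1 to 3 and 6.46 CPM in WT replicate 4. A second of the study's sample sheets lists the latter library as treated with apocynin, an inhibitor of the oxidase, while the labels and the sheet that was used give it as untreated. Igfbp2 and the sex of the cells therefore cannot be told apart, and vehicle against WT is matched for Y-linked RNA only without WT replicate 4. In bulk RNA, fewer cells of a kind and less RNA per cell cannot be told apart either.

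Between vehicle-treated Ncf1-/- and WT NSCs, 34 of the 49 genes tested were called, 19 higher and 15 lower, against 57.2% of all genes tested, 28.9% higher and 28.2% lower. The median log2 fold change was 0.16 over the 49 genes and 0.02 over all genes. For 30 of the 49, the 4 vehicle libraries did not overlap the 4 WT libraries, against 51.2% of all genes. Without WT replicate 4 the counts were 19 higher and 14 lower, and without both WT replicates 3 and 4, 24 and 14. Calls over all genes also changed, from 8978 with all libraries to 9615 without both. They were 8254 to 9406 when any 1 library was left out. The genes that rose were the basement membrane genes Col4a1, Col4a2, Col4a4, Col15a1, Col18a1, Lama1, Lama4, Lamb1 and Nid2, the fibrillar Col1a1, Col1a2, Col3a1, Col5a1, Col5a2 and Col5a3, and Col6a1, Col12a1, Col22a1 and Col25a1. Those that fell were the basement membrane genes Agrn, Col4a3, Lama2, Lamb2, Lamc1 and Nid1, the fibrillar Col2a1, Col11a1 and Col11a2, and the fibril-associated Col9a1, Col9a2, Col9a3, Col14a1, Col16a1 and Col20a1.

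Igfbp2-treated against vehicle-treated Ncf1-/- NSCs gave 24 of 49 called, against 25.0% of all genes tested. Of these, 21 were higher (14.2% of all genes) and 3 lower (10.7% of all genes). The median log2 fold change was 0.62 over the 49 genes and 0.04 over all genes, and the groups did not overlap for 27 of the 49, against 34.1% of all genes. The split depended on the scaling. When counts were scaled by library totals alone, which moved the median of all genes to -0.24, 11 were higher and 7 lower. On log2(TPM + 1) the median of all genes was -0.30 with limma, and 6 were higher and 3 lower. The count of rises was 13, 13 and 12 without vehicle replicate 1, 2 or 3, and 13 without Igfbp2 replicate 2 or 3. The count of falls was 1 without vehicle replicate 2 and 6 without WT replicate 3. WT replicates 3 and 4 enter this contrast through the shared estimate of the spread and the scaling. Without both, 27 were higher and 8 lower, with 6028 calls over all genes against 3923 with all libraries. The 11 matrix genes called there and not with all libraries were Col25a1, Col4a6, Col5a2, Fn1, Lama2 and Lama3 (higher) and Col11a2, Col28a1, Col4a4, Col9a1 and Col9a2 (lower). In the fit on the 8 Ncf1-/- libraries alone, 27 were higher and 5 lower, with 5709 calls over all genes. When these were also paired by replicate number (the replicate block), 28 were higher and 4 lower, with 5434 calls over all genes. The Y-linked sums go against that pairing as the libraries are labelled. Set against WT, Igfbp2-treated NSCs had 36 of 49 called (62.4% of all genes), 23 higher (31.6% of all genes) and 13 lower (30.8% of all genes). Without WT replicates 3 and 4, Fn1, Col4a5, Col4a6 and Lamb2 were also called higher there. These comparisons share libraries, so their values are set side by side and not counted against each other.

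**Figure D1:**
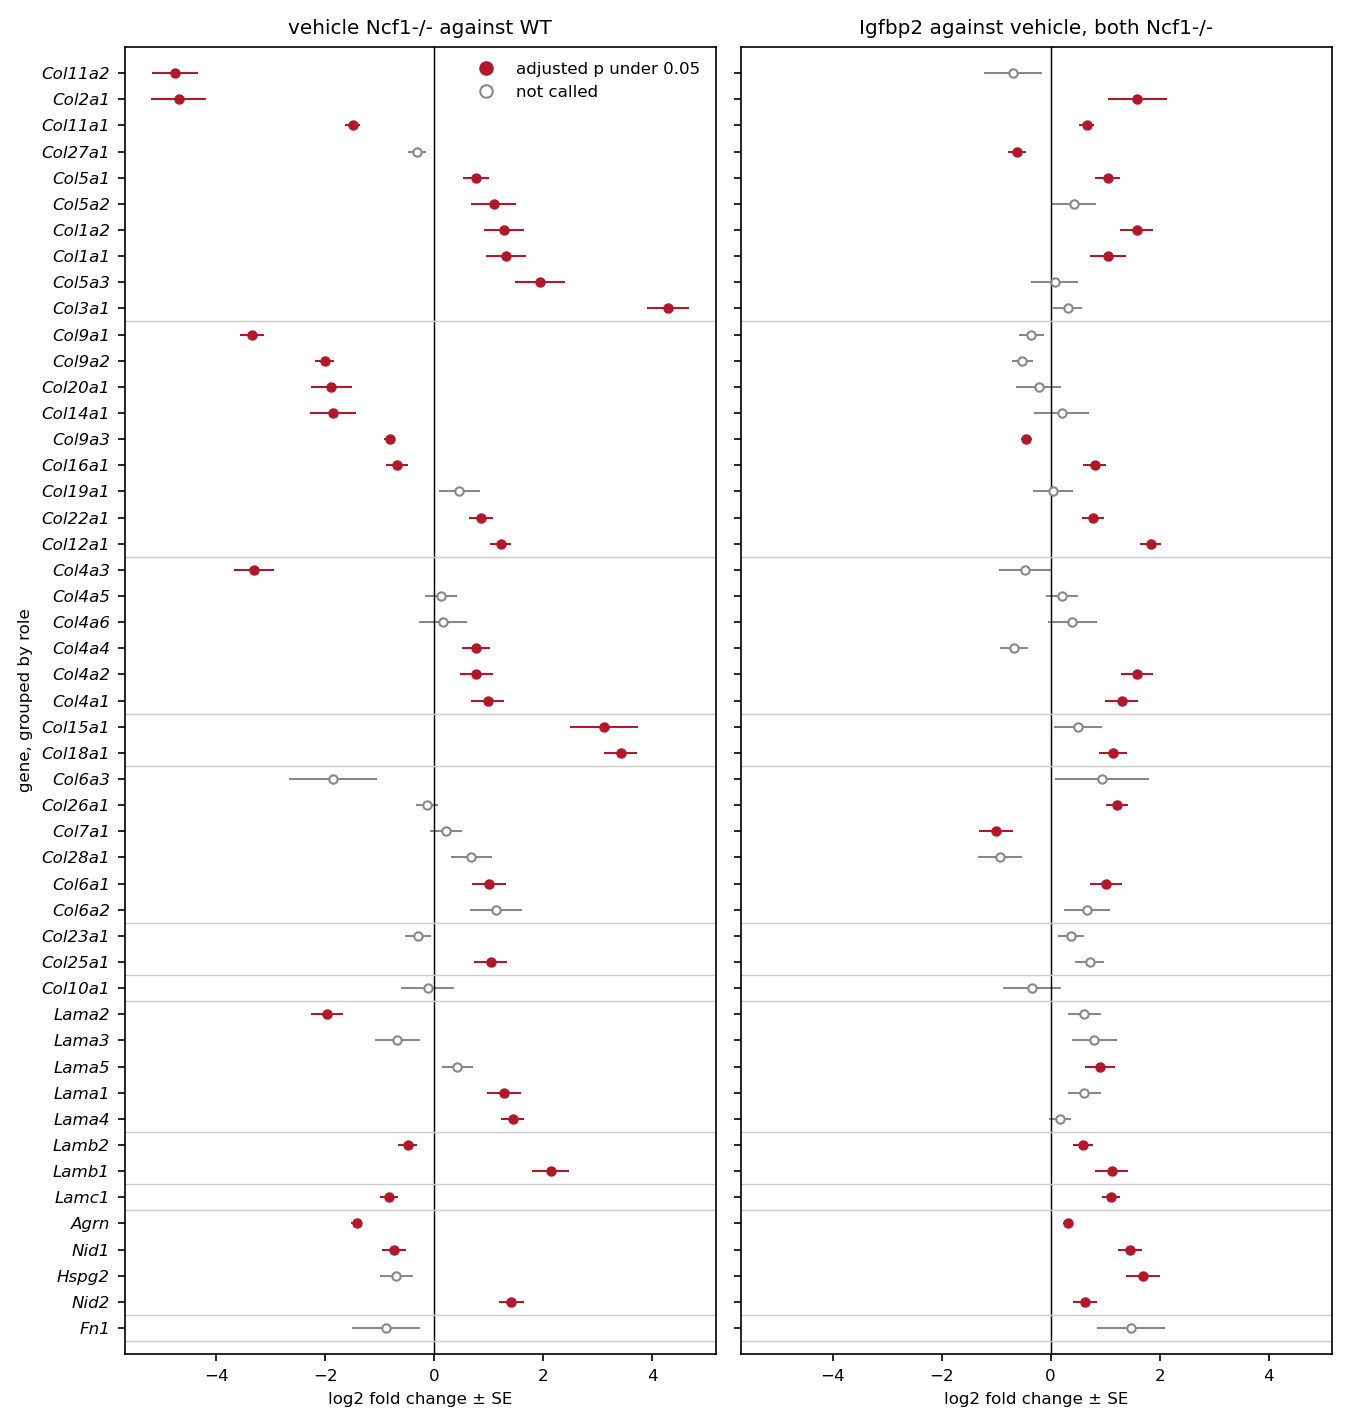
Log2 fold changes (x axis) with their standard errors for the 49 genes tested (y axis, grouped by role), in vehicle-treated Ncf1-/- against WT NSCs (left) and in Igfbp2-treated against vehicle-treated Ncf1-/- NSCs (right). Filled red points passed the edgeR test. The left panel spans -4.75 (Col11a2) to 4.28 (Col3a1) with 19 called rises and 15 called falls, and 21 of the 24 called points in the right panel lie above 0.

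Chains of all 3 laminin classes moved. Lamc1, which encodes the gamma chain shared by most laminins, lies at chr1:153218922-153332786 (GRCm38, minus strand). It read 247, 270.5, 176 and 236 CPM in WT replicates 1 to 4, 107, 129, 111 and 174 CPM in the vehicle libraries and 229, 299, 317 and 276 CPM in the Igfbp2 libraries. Each vehicle library was below each WT library and below each Igfbp2 library, while WT and Igfbp2 libraries overlapped. Lamc1 was 1.78-fold lower with vehicle than in WT (log2 fold change -0.83 ± 0.17, edgeR adjusted p = 0.000959) and 2.15-fold higher with Igfbp2 than with vehicle (log2 fold change 1.1 ± 0.17, edgeR adjusted p = 0.00139). That rise was not called on log2(TPM + 1) or log2(TPM + 0.1). Igfbp2 against WT was not called (log2 fold change 0.27 ± 0.17, edgeR adjusted p = 0.177).

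The beta chains parted. Lamb1, the widely used beta chain of early embryonic and vascular laminins, read 0.864, 1.56, 3.96 and 2.45 CPM in WT, 8.19, 9.77, 8.79 and 13.6 CPM with vehicle and 17.4, 21.5, 28.3 and 20.8 CPM with Igfbp2. The 3 groups did not overlap and stood in that order. Lamb1 rose 4.397-fold from WT to vehicle (log2 fold change 2.14 ± 0.34, edgeR adjusted p = 0.000128) and 2.18-fold more with Igfbp2 (log2 fold change 1.12 ± 0.30, edgeR adjusted p = 0.018). The second call was lost without vehicle replicate 1, 2 or 3 or Igfbp2 replicate 3, with adjusted p up to 0.0615 and log2 fold changes of 0.93 to 1.32. That call was also lost on log2(TPM + 1) and log2(TPM + 0.1). Lamb2, the beta chain of synaptic and vascular laminins, read 96.2, 108, 189.8 and 169 CPM in WT, 98.5, 100.2, 95.5 and 106 CPM with vehicle and 131, 165, 146 and 161 CPM with Igfbp2. The vehicle libraries lay at the level of WT replicates 1 and 2, and below the Igfbp2 libraries. Its fall from WT to vehicle (log2 fold change -0.49 ± 0.18, edgeR adjusted p = 0.033) was not called without vehicle replicate 1, 2 or 3 or WT replicate 3 or 4, and the log2 fold change was -0.08 without WT replicates 3 and 4. Igfbp2 against WT was then called (0.48, edgeR adjusted p = 0.0015), against 0.10 with all libraries (edgeR adjusted p = 0.653). Its rise with Igfbp2 (log2 fold change 0.59 ± 0.18, edgeR adjusted p = 0.0321) was not called without vehicle replicate 1, 2 or 3 or Igfbp2 replicate 2, 3 or 4, with adjusted p up to 0.0941, and on log2(TPM + 1) it was -0.02, against the median of -0.30 over all genes. In level per kilobase, Lamb2 made up 98.5% ± 0.776 (SD, n = 4) of the 3 beta chains in WT, 93.1% ± 2.09 with vehicle and 89.6% ± 2.67 with Igfbp2, and Lamb1 nearly all of the rest.

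The alpha chain sets which receptors a laminin binds. Lama5, the most abundant alpha chain per kilobase in each of the 12 libraries, read 42.8, 50.8, 122 and 99.2 CPM in WT, 97.7, 109, 92.3 and 124 CPM with vehicle and 145, 229, 220.1 and 199 CPM with Igfbp2. Vehicle and WT overlapped, and each Igfbp2 library was above all others. Its rise with Igfbp2 was 1.88-fold (log2 fold change 0.91 ± 0.28, edgeR adjusted p = 0.0321), a call lost without vehicle replicate 1, 2 or 3 or Igfbp2 replicate 2, 3 or 4 (adjusted p up to 0.0902). That call was also lost on library totals, log2(TPM + 1) and log2(TPM + 0.1). Against WT, the vehicle level was not called (log2 fold change 0.42 ± 0.28, edgeR adjusted p = 0.21), but it was without WT replicate 3 (log2 fold change 0.72, edgeR adjusted p = 0.0221) and without both WT replicates 3 and 4 (1.13, edgeR adjusted p = 0.000108). Lama4, a chain of endothelial and mesenchymal laminins, read 2.14, 2.86, 4.19 and 4.96 CPM in WT, 8.97, 9.24, 8.56 and 11.6 CPM with vehicle and 10.4, 9.62, 12.6 and 10.9 CPM with Igfbp2. Both Ncf1-/- groups were above WT without overlap and overlapped each other. The rise over WT was 2.71-fold with vehicle (log2 fold change 1.44 ± 0.21, edgeR adjusted p = 7.79e-05), and the change with Igfbp2 was not called (log2 fold change 0.18 ± 0.20, edgeR adjusted p = 0.539). Lama2, the alpha chain of muscle, nerve and glial laminins, went the other way, with 9.91, 10.6, 3.61 and 7.91 CPM in WT, 1.74, 1.89, 1.77 and 2.69 CPM with vehicle and 2.66, 3.12, 3.54 and 3.14 CPM with Igfbp2. WT was above vehicle without overlap, WT replicate 3 being the lowest of its group. Exons of Lama2 share 631 bases with Gm48084 on the opposite strand. Lama2 was 3.91-fold lower with vehicle (log2 fold change -1.97 ± 0.29, edgeR adjusted p = 7.76e-05). Its change with Igfbp2 was not called (log2 fold change 0.62 ± 0.30, edgeR adjusted p = 0.147) but was called without WT replicate 3 and in the fit on the 8 Ncf1-/- libraries, where the edgeR adjusted p was 0.0275 without the replicate block and 0.0396 with it.

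Lama1, the chain of the earliest embryonic basement membranes, rose from 1.55 to 4.19 CPM in WT to 4.97 to 9.29 CPM with vehicle (log2 fold change 1.28 ± 0.31, edgeR adjusted p = 0.00351) and read 7.37 to 14.5 CPM with Igfbp2. Lama3, known from epithelial laminin and sharing 197 exon bases with Gm29200 on the opposite strand, was called in none of the comparisons. It read 9.51, 9.499, 2.35 and 4.01 CPM in the WT replicates, 3.05 to 5.97 CPM with vehicle and 3.93 to 9.04 CPM with Igfbp2, and its log2 fold change of -0.68 against WT became -0.97 without WT replicate 3 (edgeR adjusted p = 0.0226) and -1.32 without WT replicates 3 and 4 (edgeR adjusted p = 0.00128). Its change with Igfbp2 was 0.80 with all libraries (edgeR adjusted p = 0.173). On the 8 Ncf1-/- libraries alone it was 0.75 (edgeR adjusted p = 0.0389), and 0.75 with the replicate block (edgeR adjusted p = 0.0276). Lamb3 and Lamc3 held at most 8 and 3 counts in any library and were not tested. Lama5 made up 51.2%, 55.0%, 83.8% and 74.7% of the alpha chains per kilobase in WT replicates 1 to 4, and Lama3 23.3%, 19.7%, 2.80% and 5.61%. Lama5 stood at 74.5% ± 1.87 (SD, n = 4) with vehicle and 81.5% ± 1.99 with Igfbp2. The Lama5 share of WT replicates 3 and 4 was thus near that of the Ncf1-/- libraries, and that of replicates 1 and 2 was lower.

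**Figure D2:**
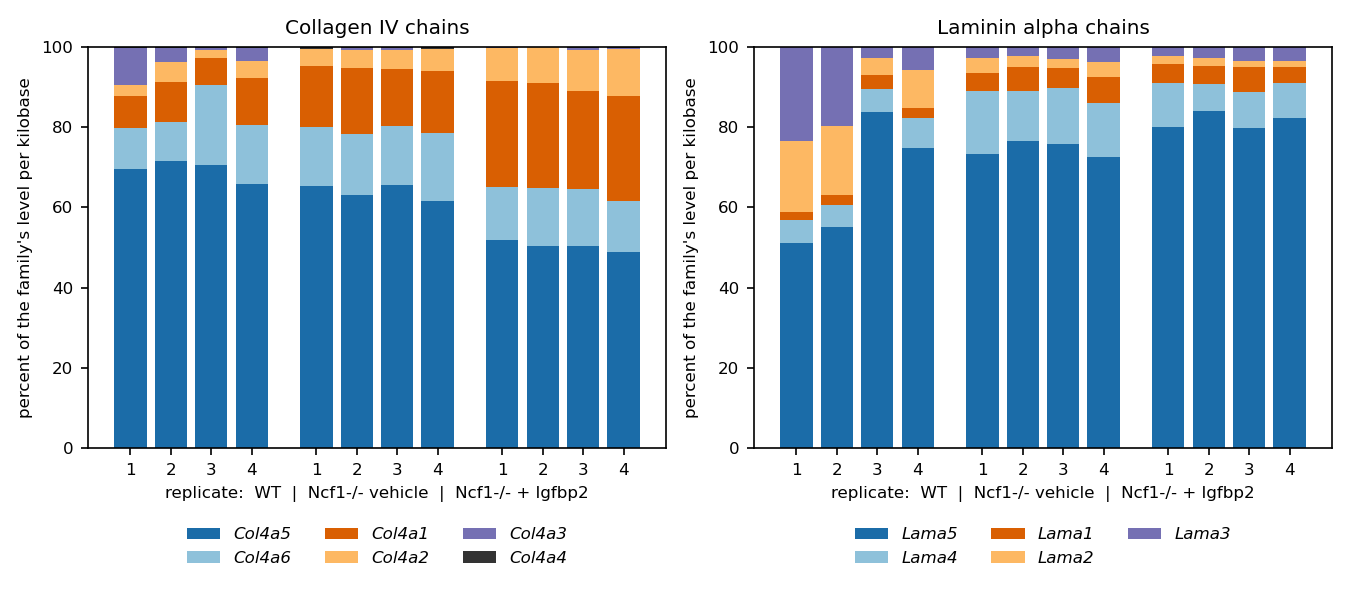
Share (y axis, percent) of each chain in the summed level per kilobase of the type IV collagen chains (left) and of the laminin alpha chains (right), in each library (x axis, replicates 1 to 4 of each group). The share of Col4a1 goes from 6.78% to 11.6% in WT over 14.1% to 16.4% with vehicle to 24.4% to 26.3% with Igfbp2, and the share of Lama5 is lowest in WT replicates 1 and 2.

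The 6 type IV collagen genes lie as 3 pairs, each transcribed outward from a common start region. In GENCODE M21 (GRCm38), Col4a1 and Col4a2 overlap by 22 bases on chromosome 8, Col4a3 and Col4a4 are 71 bases apart on chromosome 1, and Col4a5 and Col4a6 are 1308 bases apart on chromosome X. The shared bases of the first pair and the interval of the second are shown, because the genes of the first pair both rose here and those of the second went opposite ways. Both are read from RefSeq windows on GRCm38.p6, with capitals for the letters GGGCGG (the GC box) on either strand.
Col4a1-Col4a2 overlap (chr8:11312805-11312826, plus strand): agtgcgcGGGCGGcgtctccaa
Col4a4-Col4a3 interval (chr1:82586850-82586920, minus strand): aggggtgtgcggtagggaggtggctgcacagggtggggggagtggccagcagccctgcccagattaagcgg
The overlap holds 1 GC box, and the interval, which lies between the annotated starts, holds 0.

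Col4a1 and Col4a2, the chains of the collagen IV trimer found in nearly all basement membranes, rose in both steps. Col4a1 read 8.14, 10.1, 21.5 and 29.7 CPM in WT, 32.6, 34.9, 34.04 and 35.5 CPM with vehicle and 77.3, 90.2, 74.3 and 96.3 CPM with Igfbp2. The groups did not overlap, and WT replicates 3 and 4 were the nearest to the vehicle level. Col4a1 rose 1.97-fold over WT with vehicle (log2 fold change 0.98 ± 0.30, edgeR adjusted p = 0.0139) and 2.47-fold with Igfbp2 over vehicle (log2 fold change 1.30 ± 0.30, edgeR adjusted p = 0.00873). The latter call was lost on log2(TPM + 0.1). Col4a2 read 2.59, 4.26, 5.25 and 10.5 CPM in WT, 8.28, 9.58, 8.92 and 11.2 CPM with vehicle and 24.1, 30.4, 26.1 and 33.8 CPM with Igfbp2. WT replicate 4 lay within the vehicle range, and the Igfbp2 libraries were above all others. Its rise with Igfbp2 was 3.01-fold (log2 fold change 1.59 ± 0.29, edgeR adjusted p = 0.00295). The difference from WT with vehicle (log2 fold change 0.77 ± 0.30, edgeR adjusted p = 0.0438) was not called when any of 10 libraries was left out (each vehicle library, Igfbp2 replicates 1 to 3 and WT replicates 1 to 3, adjusted p up to 0.126), and without WT replicate 4 it was 1.19 (edgeR adjusted p = 0.000408).

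Col4a3 and Col4a4, chains of the glomerular and lung trimer, did not move together. Col4a3 read 4.91, 4.53, 1.78 and 3.51 CPM in WT and 0.218 to 0.485 CPM with vehicle, 9.91-fold lower without overlap (log2 fold change -3.31 ± 0.37, edgeR adjusted p = 7.33e-06). Col4a4 read 0.591, 0.594, 1.004 and 0.891 CPM in WT and 1.21 to 1.41 CPM with vehicle, above WT without overlap (log2 fold change 0.76 ± 0.26, edgeR adjusted p = 0.0219), but the call was lost without vehicle replicate 3 or 4 or WT replicate 1 or 2 (adjusted p up to 0.0684). With Igfbp2 against vehicle, neither Col4a3 (log2 fold change -0.47 ± 0.48, edgeR adjusted p = 0.501) nor Col4a4 (log2 fold change -0.67 ± 0.26, edgeR adjusted p = 0.0766) was called. Col4a4 was called lower there without Igfbp2 replicate 4 and without both WT replicates 3 and 4. Exons of Col4a3 share 563 bases with an opposite-strand transcript, C430014B12Rik, and whether reads were counted by strand is not given in the sources used here. Col4a5, the X-linked chain with the highest level per kilobase of the 6, read 63.8, 66.9, 203 and 154 CPM in WT, 128, 124, 145 and 131 CPM with vehicle and 144, 158, 142 and 164 CPM with Igfbp2. Its vehicle and Igfbp2 libraries lay between the low WT replicates 1 and 2 and the high WT replicate 3, and neither difference was called (log2 fold change 0.12 ± 0.29, edgeR adjusted p = 0.76 against WT and log2 fold change 0.20 ± 0.29, edgeR adjusted p = 0.638 between treatments). Without WT replicates 3 and 4 the rise over WT was called (0.97, edgeR adjusted p = 1.37e-06). Col4a6 read 10.4, 9.98, 63.0 and 38.2 CPM in WT, 30.2 to 38.8 CPM with vehicle and 39.8 to 50.1 CPM with Igfbp2. Its log2 fold change against WT with vehicle was 0.16 with all libraries (edgeR adjusted p = 0.778) and 1.70 without WT replicates 3 and 4 (edgeR adjusted p = 7.16e-08). Its change with Igfbp2 was not called (log2 fold change 0.40 ± 0.45, edgeR adjusted p = 0.541) but was in the fit on the 8 Ncf1-/- libraries (edgeR adjusted p = 0.0126 without the replicate block and 0.00984 with it). Of the collagen IV level per kilobase, Col4a1 and Col4a2 made up 9.08% ± 2.10 and 3.44% ± 1.38 in WT (SD, n = 4), 15.3% ± 0.939 and 4.82% ± 0.545 with vehicle, and 25.8% ± 0.904 and 9.79% ± 1.43 with Igfbp2, as the plot of chain shares shows. The share of Col4a5 was 69.4% ± 2.56, 63.9% ± 2.0 and 50.4% ± 1.18 in the same order.

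Against WT, Col18a1 rose most among the basement membrane genes. It encodes type XVIII collagen, a heparan sulfate-bearing collagen whose end is released as endostatin, at chr10:77052178-77166548 (minus strand). Its libraries read 2.91, 1.83, 7.54 and 5.46 CPM in WT, 42.3, 46.2, 51.97 and 54.3 CPM with vehicle and 113, 104, 104 and 108 CPM with Igfbp2. The groups were far apart, and within each Ncf1-/- group the libraries differed little. Col18a1 was 10.7-fold higher with vehicle than in WT (log2 fold change 3.42 ± 0.30, edgeR adjusted p = 1.08e-06) and 2.202-fold higher with Igfbp2 than with vehicle (log2 fold change 1.14 ± 0.26, edgeR adjusted p = 0.00872). The latter call was lost on log2(TPM + 0.1). The sister gene Col15a1 had 0 to 0.223 CPM in WT and 0.479 to 0.933 CPM with vehicle and was called higher (log2 fold change 3.11 ± 0.62, edgeR adjusted p = 0.00086).

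Nidogens, perlecan and agrin all rose with Igfbp2 on the TMM scale, but they differed against WT. Agrn encodes agrin, which clusters receptors at synapses and binds laminin, and lies at chr4:156165290-156197488 (minus strand). It had the highest level per kilobase of the 60 genes in WT. It read 420.0, 489.6, 464 and 545 CPM in WT, 186, 182, 169.8 and 176 CPM with vehicle and 192, 239, 225 and 234 CPM with Igfbp2. Every WT library was above every Ncf1-/- library, and Agrn was 2.68-fold lower with vehicle (log2 fold change -1.43 ± 0.10, edgeR adjusted p = 1.8e-07). The Igfbp2 libraries were above the vehicle libraries by 1.25-fold (log2 fold change 0.32 ± 0.10, edgeR adjusted p = 0.0308). That call was lost without vehicle replicate 1, 2 or 3, Igfbp2 replicate 2, 3 or 4 or WT replicate 2 (adjusted p up to 0.151), and on log2(TPM + 1) the change was -0.24, against a median of -0.30 over all genes. Hspg2, perlecan, a large heparan sulfate proteoglycan of vessel walls and of the ventricular niche, read 30.7, 24.3, 37.7 and 76.7 CPM in WT, 22.2, 26.4, 20.4 and 35.4 CPM with vehicle and 61.7, 100.1, 93.2 and 83.7 CPM with Igfbp2. The Igfbp2 libraries were above the vehicle libraries by 3.24-fold (log2 fold change 1.70 ± 0.31, edgeR adjusted p = 0.00298), and WT replicate 4 alone of the WT libraries lay in the Igfbp2 range. Vehicle against WT was not called (log2 fold change -0.69 ± 0.31, edgeR adjusted p = 0.0682) but was without vehicle replicate 4 or WT replicate 1 or 2, and the log2 fold change was -0.28 without WT replicate 4.

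Nid1, nidogen 1, read 26.4, 24.99, 32.01 and 53.2 CPM in WT, 15.8, 17.6, 21.7 and 26.6 CPM with vehicle and 50.4, 54.5, 59.6 and 59.5 CPM with Igfbp2. The vehicle libraries were the lowest group but vehicle replicate 4 overlapped WT. Nid1 fell against WT (log2 fold change -0.74 ± 0.22, edgeR adjusted p = 0.0115), a call lost without WT replicates 3 and 4 (-0.38, edgeR adjusted p = 0.0565) and on log2(TPM + 1) and log2(TPM + 0.1). It was 2.74-fold higher with Igfbp2 than with vehicle (log2 fold change 1.45 ± 0.22, edgeR adjusted p = 0.00133). Nid2, nidogen 2, read 2.59, 3.94, 5.42 and 7.01 CPM in WT, 12.6, 13.3, 9.801 and 14.6 CPM with vehicle and 17.2, 21.8, 18.8 and 20.4 CPM with Igfbp2. Here WT was the lowest group, with no overlap among the 3. Nid2 rose 2.66-fold with vehicle over WT (log2 fold change 1.41 ± 0.23, edgeR adjusted p = 0.000176), while its rise with Igfbp2 (log2 fold change 0.63 ± 0.22, edgeR adjusted p = 0.0497) was lost without any 1 of the 8 Ncf1-/- libraries but vehicle replicate 4, and without WT replicate 2 (adjusted p up to 0.156). The rise with Igfbp2 was also not called on library totals, log2(TPM + 1) or log2(TPM + 0.1). Exons of Nid2 share 437 bases with Rtraf on the opposite strand.

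**Figure D3:**
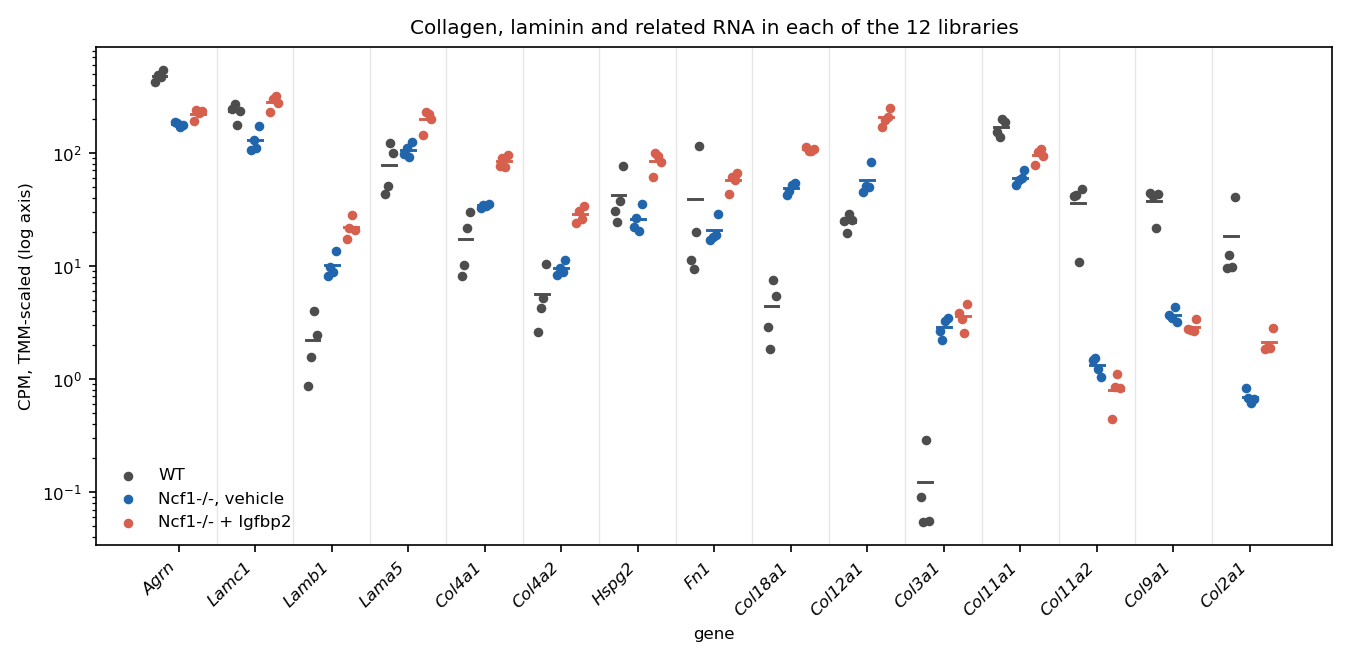
CPM (y axis, log scale) of 15 genes (x axis) in each of the 12 libraries, with 1 point per library and a bar at the mean of each group of 4. Col18a1, Lamb1 and Col12a1 step up from WT to vehicle to Igfbp2 without overlap, Lamc1 is lowest with vehicle, and Col11a2, Col9a1 and Col2a1 are lower in every Ncf1-/- library than in any WT library. For Fn1, WT replicate 4 at 114 CPM is above all other libraries.

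Fibrillar collagens split by type. The chains that share fibrils in cartilage and in the eye (types II and XI) fell in Ncf1-/- NSCs, and those of connective tissue (types I, III and V) rose. The 250 bases before a RefSeq start of Col11a2 and Col11a1, both of which fell, and of Col18a1, which rose, are shown for comparison. Col18a1 has 2 such starts, and the outermost was used. Its window takes in 18 bases of annotated Col18a1 exons. In GENCODE M21, Col11a2 starts at base 34039437, downstream of the end of its window. Capitals mark GGGCGG (the GC box), CCAAT and ACAAAG (a SOX core motif) on either strand. These letters occur in 32.7%, 33.8% and 16.5% of the 32851 mouse windows of the same length.
Col11a2 (chr17:34038888-34039137, plus strand, GRCm38.p6): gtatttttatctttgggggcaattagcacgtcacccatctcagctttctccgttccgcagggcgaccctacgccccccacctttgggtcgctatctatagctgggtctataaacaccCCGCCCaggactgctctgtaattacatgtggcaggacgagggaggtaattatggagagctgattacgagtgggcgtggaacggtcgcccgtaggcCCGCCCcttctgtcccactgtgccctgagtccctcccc
Col11a1 (chr3:114030290-114030539, plus strand, GRCm38.p6): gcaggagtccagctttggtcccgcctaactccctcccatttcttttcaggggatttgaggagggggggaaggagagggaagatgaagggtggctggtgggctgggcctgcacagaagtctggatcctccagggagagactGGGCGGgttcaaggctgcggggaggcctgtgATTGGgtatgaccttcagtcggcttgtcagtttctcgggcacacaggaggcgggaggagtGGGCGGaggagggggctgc
Col18a1 (chr10:77166531-77166780, minus strand, GRCm38.p6): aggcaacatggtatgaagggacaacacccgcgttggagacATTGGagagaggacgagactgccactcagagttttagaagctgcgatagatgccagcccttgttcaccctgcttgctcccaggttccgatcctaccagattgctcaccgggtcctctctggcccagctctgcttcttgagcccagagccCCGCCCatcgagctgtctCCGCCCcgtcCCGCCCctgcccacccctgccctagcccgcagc
The GC box was found 2 times in the window of Col11a2, 2 times in that of Col11a1 and 3 times in that of Col18a1. The letters CCAAT were found 0, 1 and 1 times in the same order, and ACAAAG 0 times in each. Of the 60 genes, 43 had a window in the table.

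Col11a2 fell most of the 49. It read 41.2, 42.4, 10.9 and 48.4 CPM in WT, 1.48, 1.55, 1.24 and 1.04 CPM with vehicle and 0.443, 0.841, 1.1 and 0.835 CPM with Igfbp2. WT replicate 3 was the lowest WT library and still above all Ncf1-/- libraries. The level with vehicle was 26.9-fold lower (log2 fold change -4.75 ± 0.42, edgeR adjusted p = 1.22e-06), and the change with Igfbp2 was not called (log2 fold change -0.69 ± 0.54, edgeR adjusted p = 0.357), although it was without WT replicate 3. Col2a1, the chain of cartilage collagen, read 9.55, 12.4, 9.78 and 41.1 CPM in WT, 0.828, 0.677, 0.618 and 0.672 CPM with vehicle and 1.83, 1.92, 1.86 and 2.799 CPM with Igfbp2. WT replicate 4 was far above the other 3, and the 3 groups did not overlap. Col2a1 was 25.7-fold lower with vehicle than in WT (log2 fold change -4.68 ± 0.50, edgeR adjusted p = 5.53e-06), with a log2 fold change of -3.94 without WT replicate 4. Its rise with Igfbp2 (log2 fold change 1.59 ± 0.54, edgeR adjusted p = 0.0488) was lost without any 1 of the 8 Ncf1-/- libraries or WT replicate 2 (adjusted p up to 0.126). On library totals, log2(TPM + 1) and log2(TPM + 0.1) that rise was not called. Col11a1, whose chain joins fibrils of types II and V, read 154, 137, 200.1 and 188 CPM in WT, 52.5, 57.6, 60.2 and 70.5 CPM with vehicle and 77.97, 101, 108 and 94.3 CPM with Igfbp2. The groups did not overlap and Igfbp2 lay between the other two. It was 2.82-fold lower with vehicle (log2 fold change -1.50 ± 0.14, edgeR adjusted p = 1.79e-06) and 1.58-fold higher with Igfbp2 than with vehicle (log2 fold change 0.66 ± 0.14, edgeR adjusted p = 0.00547). That rise was not called on library totals, log2(TPM + 1) or log2(TPM + 0.1).

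Col3a1, the chain of the fine fibres of vessels and soft tissue, rose most of the 49, from almost no reads. It read 0.09096, 0.05397, 0.287 and 0.0557 CPM in WT (1 to 10 counts a library), 2.66, 2.23, 3.27 and 3.43 CPM with vehicle and 3.82, 3.43, 2.54 and 4.62 CPM with Igfbp2. The 8 Ncf1-/- libraries were all above WT. The fitted fold over WT was 19.4 with vehicle (log2 fold change 4.28 ± 0.39, edgeR adjusted p = 1.42e-06) and rests on these low WT counts, and the change with Igfbp2 was not called (log2 fold change 0.31 ± 0.27, edgeR adjusted p = 0.424). Its exons share 141 bases with the same-strand transcript Gm47302. Col1a1 and Col1a2, the chains of type I collagen, rose against WT from at most 1.39 and 0.4302 CPM to 1.66 to 2.74 and 0.629 to 0.709 CPM with vehicle (log2 fold changes 1.31 and 1.28, edgeR adjusted p = 0.00797 and 0.00951). With Igfbp2 they read 3.54 to 5.29 and 1.72 to 2.36 CPM. The call of Col1a2 held whichever library was left out (log2 fold change 1.57 ± 0.31, edgeR adjusted p = 0.00394), and that of Col1a1 (log2 fold change 1.05 ± 0.33, edgeR adjusted p = 0.0361) was lost without any 1 of 7 Ncf1-/- libraries (all but Igfbp2 replicate 1), with adjusted p up to 0.104. Neither rise with Igfbp2 was called on log2(TPM + 1) or log2(TPM + 0.1).

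Type V collagen starts and limits fibrils of type I. Col5a3 read 2.001, 3.18, 17.9 and 7.52 CPM in WT, 27.01, 29.6, 31.5 and 32.6 CPM with vehicle and 28.5, 34.4, 33.4 and 30.9 CPM with Igfbp2. WT replicate 3 came nearest to the Ncf1-/- range. Col5a3 was 3.81-fold higher with vehicle (log2 fold change 1.93 ± 0.46, edgeR adjusted p = 0.0027), and its change with Igfbp2 was not called (log2 fold change 0.08 ± 0.43, edgeR adjusted p = 0.912). Col5a1 rose from 10.1 to 22.1 CPM in WT to 22.4 to 33.5 CPM with vehicle (log2 fold change 0.77 ± 0.23, edgeR adjusted p = 0.0133, lost without vehicle replicate 4, adjusted p = 0.0537) and to 49.3 to 59.2 CPM with Igfbp2 (log2 fold change 1.04 ± 0.23, edgeR adjusted p = 0.00739). The latter call was lost on log2(TPM + 1) and log2(TPM + 0.1). Col5a2 read 19.8, 21.2, 108 and 37.3 CPM in WT and 94.3 to 106 CPM with vehicle, so that WT replicate 3 stood just above the vehicle range and the others far below it. Its difference (log2 fold change 1.09 ± 0.41, edgeR adjusted p = 0.0376) was not called without any 1 vehicle library or WT replicate 1, 2 or 4 (adjusted p up to 0.0891), and was 1.94 without WT replicate 3 (edgeR adjusted p = 1.05e-06). With Igfbp2, Col5a2 read 116 to 143 CPM, not called (log2 fold change 0.42 ± 0.41, edgeR adjusted p = 0.476) but called in the fit on the 8 Ncf1-/- libraries (edgeR adjusted p = 0.0043 without the replicate block and 0.00566 with it). Col27a1, a fibrillar chain of growing cartilage, was among the 3 genes that fell with Igfbp2. It read 9.096, 9.66, 10.6 and 13.2 CPM in WT, 8.8, 8.805, 8.65 and 7.797 CPM with vehicle and 4.38, 6.25, 7.03 and 4.52 CPM with Igfbp2. The Igfbp2 libraries were below all others (log2 fold change -0.62 ± 0.17, edgeR adjusted p = 0.0185 against vehicle, lost without vehicle replicate 2, adjusted p = 0.0508), and vehicle against WT was not called (log2 fold change -0.32 ± 0.16, edgeR adjusted p = 0.104). Col24a1 held at most 5 counts and was not tested.

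Of the 9 fibril-associated collagens, all tested, 6 fell (28.2% of all genes) and 2 rose (28.9% of all genes) with vehicle against WT. The type IX chains, which coat cartilage fibrils of type II, all fell. Col9a1 read 43.9, 41.8, 21.5 and 42.98 CPM in WT, 3.703, 3.48, 4.37 and 3.17 CPM with vehicle and 2.77, 2.71, 2.63 and 3.39 CPM with Igfbp2. WT replicate 3 lay between the other WT libraries and the Ncf1-/- libraries. The level with vehicle was 10.2-fold lower (log2 fold change -3.35 ± 0.21, edgeR adjusted p = 1.01e-07), and that of Igfbp2 was not called against it (log2 fold change -0.35 ± 0.23, edgeR adjusted p = 0.277), although it was without WT replicate 3. Col9a2 read 8.82, 9.34, 10.3 and 8.91 CPM in WT, 2.66, 2.56, 2.21 and 1.86 CPM with vehicle and 1.61, 1.86, 1.05 and 1.96 CPM with Igfbp2. WT was again apart, 0.248 times its level being left with vehicle (log2 fold change -2.01 ± 0.18, edgeR adjusted p = 1.18e-06). The further change with Igfbp2 was not called (log2 fold change -0.52 ± 0.19, edgeR adjusted p = 0.0674), although it was without vehicle replicate 4 or Igfbp2 replicate 4. Col9a3 fell less, from 61.8, 72.6, 87.2 and 78.7 CPM in WT to 46.7, 44.2, 42.6 and 36.9 CPM with vehicle and 31.9, 31.2, 31.2 and 30.8 CPM with Igfbp2. The groups did not overlap, and the Igfbp2 libraries were close to each other. Col9a3 fell in both steps (log2 fold change -0.82 ± 0.10, edgeR adjusted p = 1.91e-05 and log2 fold change -0.44 ± 0.10, edgeR adjusted p = 0.00945). In level per kilobase, Col9a3 made up 60.1% to 79.5% of type IX chains in WT and 88.0% to 92.4% in the Ncf1-/- libraries. Exons of Col9a3 share 234 bases with Tcfl5 on the opposite strand.

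Col12a1, whose protein ties type I fibrils to other matrix, rose most of the 49 with Igfbp2. It lies at chr9:79598991-79718831 (minus strand) and read 24.7, 19.6, 29.03 and 25.2 CPM in WT, 45, 51.4, 50.1 and 83.7 CPM with vehicle and 169.9, 195, 207 and 252 CPM with Igfbp2. The 3 groups did not overlap, and replicate 4 was the highest of both Ncf1-/- groups. Col12a1 was 2.33-fold higher with vehicle than in WT (log2 fold change 1.22 ± 0.19, edgeR adjusted p = 0.000131) and 3.58-fold higher with Igfbp2 than with vehicle (log2 fold change 1.84 ± 0.19, edgeR adjusted p = 0.000359). Col16a1 fell against WT and rose with Igfbp2 (log2 fold change -0.68 ± 0.21, edgeR adjusted p = 0.0127 and log2 fold change 0.81 ± 0.21, edgeR adjusted p = 0.0155), from 41.6 to 99.9 over 36.9 to 47.2 to 62.6 to 77.4 CPM. On log2(TPM + 1) its change with Igfbp2 was -0.02, against the median of -0.30 over all genes. Col22a1 rose in both steps, Col14a1 and Col20a1 fell against WT, and Col19a1 was not called, with no library above 6.02 CPM. Their log2 fold changes against WT were 0.85, -1.86, -1.89 and 0.46. The rise of Col22a1 with Igfbp2 was lost without vehicle replicate 3 or Igfbp2 replicate 2 (adjusted p up to 0.0738), and on library totals, log2(TPM + 1) and log2(TPM + 0.1).

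Among the beaded-filament, anchoring and related collagens, 6 of 9 were tested. Col6a1 rose in both steps, from 0.5003 to 1.95 over 2.08 to 2.65 to 4.54 to 5.05 CPM (log2 fold change 1.0 ± 0.31, edgeR adjusted p = 0.0144 and log2 fold change 1.01 ± 0.29, edgeR adjusted p = 0.0231), and the second call was lost without any 1 of 7 Ncf1-/- libraries (all but vehicle replicate 4), with adjusted p up to 0.0719. The second rise of Col6a1 was also not called on library totals, log2(TPM + 1) or log2(TPM + 0.1). Its partner chain Col6a2 stayed at or below 2.16 CPM, and vehicle against WT was not called (log2 fold change 1.14 ± 0.48, edgeR adjusted p = 0.0565) but was without vehicle replicate 2, WT replicate 3 or WT replicate 4, and without both of the latter (2.85, edgeR adjusted p = 0.000204). Col6a3 read 0.364, 0.324, 0.516 and 4.899 CPM in WT, so that WT replicate 4 alone set its log2 fold change of -1.86, which was not called with all libraries (edgeR adjusted p = 0.0647), was called without WT replicate 1, 2 or 3, and was -0.08 without replicate 4. With Igfbp2 against vehicle its log2 fold change was 0.94 (edgeR adjusted p = 0.446) and on the 8 Ncf1-/- libraries it was called with the replicate block (edgeR adjusted p = 0.0494) and not without it (edgeR adjusted p = 0.0681). Col26a1 rose with Igfbp2 from 2.83 to 5.74 to 9.56 to 11.5 CPM (log2 fold change 1.22 ± 0.20, edgeR adjusted p = 0.00208) and was not called against WT with vehicle (log2 fold change -0.13 ± 0.21, edgeR adjusted p = 0.605). Its rise was not called on log2(TPM + 1) or log2(TPM + 0.1). Col7a1, of the anchoring fibrils of skin, fell with Igfbp2 (log2 fold change -1.01 ± 0.31, edgeR adjusted p = 0.0339) at no more than 2.35 CPM, a call lost without vehicle replicate 1, 2 or 3 or Igfbp2 replicate 1, 3 or 4 (adjusted p up to 0.107). That fall was also not called on log2(TPM + 1) or log2(TPM + 0.1). Col28a1 stayed below 1 CPM and was not called (log2 fold change 0.68 ± 0.38, edgeR adjusted p = 0.142 against WT and log2 fold change -0.94 ± 0.40, edgeR adjusted p = 0.104 with Igfbp2, the latter called on the 8 Ncf1-/- libraries, edgeR adjusted p = 0.0152 without the replicate block and 0.0429 with it). Without WT replicates 3 and 4 it was called higher against WT (1.34, edgeR adjusted p = 0.017). The transmembrane chain Col25a1 rose against WT (log2 fold change 1.03 ± 0.30, edgeR adjusted p = 0.00929, lost without WT replicates 3 and 4 with 0.82 and adjusted p = 0.0605) at up to 1.86 CPM, and its change with Igfbp2 was not called (log2 fold change 0.72 ± 0.27, edgeR adjusted p = 0.0658, called without WT replicate 4 and on the 8 Ncf1-/- libraries with or without the replicate block). Col23a1 and Col10a1 were called in no comparison. Col6a4, Col6a5, Col6a6, Col8a1, Col8a2, Col13a1 and Col17a1 held at most 9 counts in any library and were not tested.

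Fn1, fibronectin, which binds integrins and collagens and is laid down early in new matrix, lies at chr1:71585520-71653200 (minus strand). It read 11.4, 9.39, 19.99 and 114 CPM in WT replicates 1 to 4, 16.9, 17.9, 18.9 and 29.1 CPM with vehicle and 43.7, 61.5, 57.6 and 66.97 CPM with Igfbp2. Every Igfbp2 library was above every vehicle library, and WT spanned both groups, with replicate 4 the highest of the 12. With all libraries in the fit, Fn1 was called in none of the comparisons (log2 fold change -0.89 ± 0.62, edgeR adjusted p = 0.239 for vehicle against WT, log2 fold change 1.47 ± 0.63, edgeR adjusted p = 0.102 for Igfbp2 against vehicle and log2 fold change 0.58 ± 0.61, edgeR adjusted p = 0.428 for Igfbp2 against WT). Without WT replicate 4, the rise with Igfbp2 over vehicle was called (1.44, edgeR adjusted p = 0.00128) and so was that over WT (2.0, edgeR adjusted p = 4.4e-05), and vehicle against WT turned to 0.56 (edgeR adjusted p = 0.079). Without both WT replicates 3 and 4 it was called at 0.95 (edgeR adjusted p = 0.00275). The fit on the 8 Ncf1-/- libraries alone gave 1.43 for Igfbp2 against vehicle (edgeR adjusted p = 8.86e-05), and 1.44 with the replicate block (edgeR adjusted p = 9.49e-05). Exons of Fn1 share 292 bases with Apol7d on the opposite strand.

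RSEM also gives a transcript length per gene and library, weighted by the estimated abundance of the annotated isoforms. Among 35 genes for which it could be compared, it did not overlap between vehicle and WT for 7 and between Igfbp2 and vehicle for 4, against 7.67% and 7.99% of the 12619 genes at the same minimum of 2 CPM. For Lama3, it was 5629, 5613, 6659 and 6041 bases in WT and 9597 to 10548 bases in the Ncf1-/- libraries. The short and the long forms of this gene are known as laminin alpha-3A and alpha-3B. For Fn1, it was 4540, 3421, 6184 and 7199 bases in WT, 5345 to 6566 bases with vehicle and 6730 to 7316 bases with Igfbp2, so that WT replicate 4 lay within the range of the Igfbp2 libraries. For Agrn, it was 6748 to 6815 bases in WT, 6037 to 6313 bases with vehicle and 6436 to 6788 bases with Igfbp2, with no overlap between vehicle and either group. These lengths are model estimates from short reads and were not tested.

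**Figure D4:**
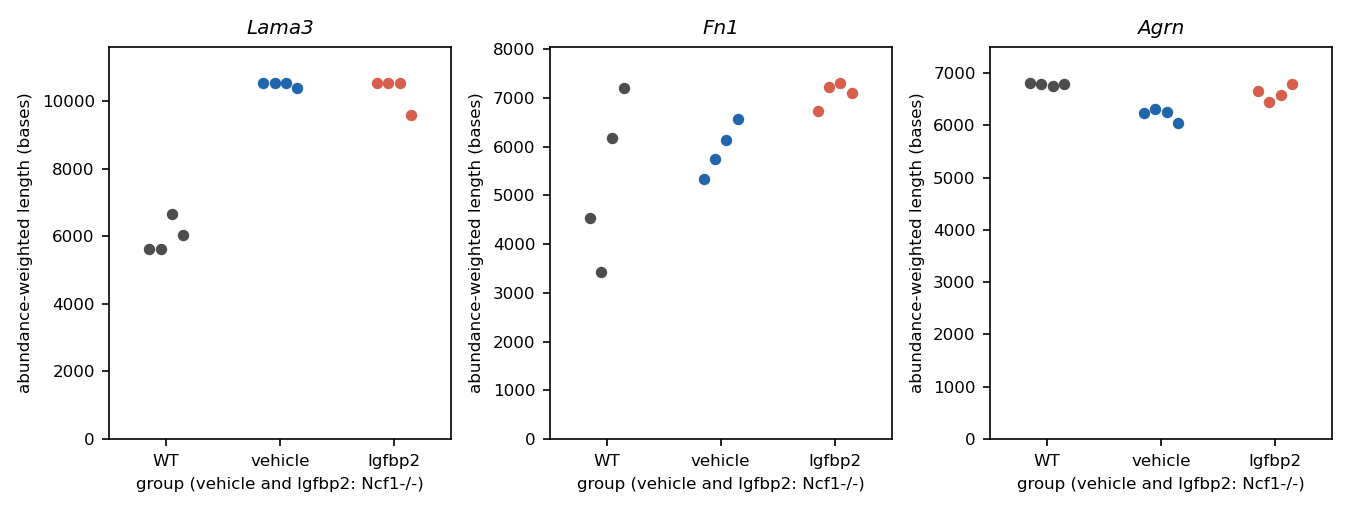
Abundance-weighted transcript length (y axis, bases, from 0) of Lama3, Fn1 and Agrn in each library, with 1 point per library and the groups on the x axis. Lama3 lies at 5613 to 6659 bases in WT and at 9597 to 10548 bases in the Ncf1-/- groups.

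In level per kilobase, which allows genes to be compared, the order in WT was Agrn at 72.5 CPM per kilobase (7.898 SD, n = 4), Lamb2 at 37.7 (12.8), Lamc1 at 33.6 (5.84), Col9a3 at 33.4 (6.64) and Col11a1 at 24.5 (4.47). Lamb2, Lamc1 and Col9a3 lay within each other's SD. With vehicle, Agrn stood at 29.6 (1.19) and Lamb2 at 29.2 (5.35), which did not differ beyond their SD, ahead of Col4a5 at 22.3, Col9a3 at 21.2 and Lamc1 at 18.9. With Igfbp2, Lamb2 at 39.9, Lamc1 at 38.9 and Agrn at 34.6 led, followed by Col4a5 at 25.7 and Col12a1 at 24.1, which in WT had stood at 2.81. The summed level, which was not tested, was 201 to 225 CPM with vehicle and 286 to 343 CPM with Igfbp2 for type IV collagen. It was 140.0 to 166 CPM and 273 to 369.5 CPM for the fibril-associated collagens, and 212 to 259 CPM and 289 to 357 CPM for the fibrillar collagens. In WT these sums were 90.4 to 295, 185.6 to 259.5 and 237 to 381 CPM in the same order. The Igfbp2 range of the fibrillar collagens thus lay within that of WT. Summed over the 60 genes, the level was 1439, 1571, 1975 and 2207 CPM in WT, 1198 to 1443 CPM with vehicle and 1901 to 2350 CPM with Igfbp2. WT replicates 1 and 2 lay near the top of the vehicle range or above it and replicates 3 and 4 within the Igfbp2 range.

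Genes that fold, trim and receive these proteins were taken from hand-written lists. Their rises with Igfbp2 depended on the scaling. Of 25 genes of collagen folding, modification and secretion, all tested, 8 rose and 4 fell with vehicle against WT and 12 rose and 0 fell with Igfbp2, with medians of 0.20 and 0.55 on the log2 scale against 0.02 and 0.04 over all genes. These were 48% called in each comparison, against 57.2% and 25.0% of all genes. On library totals, 5 of these rose and 2 fell with Igfbp2, and on log2(TPM + 1) 1 rose and 3 fell, with a median of -0.03 against -0.30 over all genes. P3h2, a prolyl 3-hydroxylase that acts on type IV collagen, rose most in both (log2 fold change 1.20 ± 0.25, edgeR adjusted p = 0.0011 and log2 fold change 1.30 ± 0.23, edgeR adjusted p = 0.00276), from 1.83 to 4.02 over 4.79 to 8.28 to 13.4 to 18.9 CPM. P4ha3, a prolyl 4-hydroxylase subunit, fell most against WT, from 15.2 to 29.3 to 1.38 to 1.79 CPM (log2 fold change -3.84 ± 0.26, edgeR adjusted p = 1.58e-07). Of 15 genes of trimming and cross-linking, 5 rose and 5 fell against WT and 5 rose and 0 fell with Igfbp2 (2 and 0 on library totals, 1 and 1 on log2(TPM + 1)), or 66.7% and 33.3% called. Adamts14, a procollagen N-proteinase, rose most in both, from 0.05397 to 2.18 CPM in WT to 21.4 to 34.2 CPM with vehicle (log2 fold change 4.95 ± 0.51, edgeR adjusted p = 3.73e-06) and 87.1 to 122 CPM with Igfbp2 (log2 fold change 1.88 ± 0.38, edgeR adjusted p = 0.00486). Its relative Adamts2 fell most against WT (log2 fold change -1.27 ± 0.37, edgeR adjusted p = 0.00949). Matrix receptors counted 8 higher and 6 lower of 23 tested against WT, and 11 higher and 1 lower with Igfbp2 (5 and 1 on library totals, 2 and 1 on log2(TPM + 1)), or 60.9% and 52.2% called. Itga8 rose most against WT (log2 fold change 1.99 ± 0.23, edgeR adjusted p = 1.01e-05), Itgb3 fell most (log2 fold change -1.26 ± 0.26, edgeR adjusted p = 0.00105), and Itgb4, the laminin-binding partner of integrin alpha 6, rose most with Igfbp2 (log2 fold change 2.05 ± 0.58, edgeR adjusted p = 0.0223). Of 23 other matrix glycoproteins tested, 11 rose and 4 fell against WT and 6 rose and 0 fell with Igfbp2 (4 and 0 on library totals, 1 and 0 on log2(TPM + 1)), or 65.2% and 26.1% called. Without WT replicates 3 and 4, the 4 lists had 13, 8, 13 and 13 genes higher and 3, 3, 4 and 7 lower against WT, and 19, 9, 17 and 15 higher and 2, 0, 1 and 0 lower with Igfbp2. Over all genes, 9615 and 6028 were called there, against 8978 and 3923 with all libraries. Fbln2, which binds nidogen and laminin, rose most against WT, from 4.32 to 79.3 to 263 to 342 CPM (log2 fold change 3.01 ± 0.71, edgeR adjusted p = 0.00272). Tnr, a tenascin of oligodendrocytes and interneurons, fell most, from 786 to 2052 to 61.4 to 73.2 CPM (log2 fold change -4.70 ± 0.29, edgeR adjusted p = 8.34e-08). Tnc, the tenascin of the ventricular niche, rose most with Igfbp2, from 194 to 435 to 639 to 1081 CPM (log2 fold change 1.47 ± 0.32, edgeR adjusted p = 0.00668).

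Markers of other cells that make these matrix proteins were summed beside them. Endothelial markers, of which 4 of 12 passed the filter, summed to 6.28 to 12.8 CPM in WT, 7.32 to 10.97 CPM with vehicle and 17.6 to 21.3 CPM with Igfbp2. Cdh5, Tie1 and Sox17 held at most 1 count in any library. Pericyte and smooth muscle markers, 7 of 12 tested, summed to 179 to 398, 172 to 203 and 307 to 406 CPM in the same order. Notch3, which NSCs also express, held the most counts of that list, and Kcnj8 and Higd1b held at most 3 counts. Fibroblast and meningeal markers, 6 of 14 tested, summed to 156 to 230, 143 to 162 and 177 to 196 CPM, with Dcn, Lum and Dpt at no more than 4 counts. Choroid plexus and ependymal markers, 2 of 8 tested, summed to 15.6 to 57.9, 31.7 to 38.5 and 56.6 to 80.1 CPM. Microglia markers, 1 of 8 tested, stayed at 0.445 to 1.45 CPM. The endothelial, pericyte, fibroblast and choroid or ependymal sums were thus higher with Igfbp2 than with vehicle on the TMM scale. Of the 49 matrix genes tested, 21 were called higher there (14.2% of all genes), 3 lower (10.7% of all genes) and 25 were not called. The part of these markers in the results was not tested.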

How the data were processed

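Per the methods, NSCs came from 4 WT and 4 Ncf1-/- pups, those of each Ncf1-/- pup serving for vehicle and for Igfbp2, and 4 libraries per group were compared. The authors mapped reads with Bowtie2 and quantified them with RSEM on GRCm38. The deposited expected counts are RSEM's estimates per gene and library, 15.9% of which were not whole, and were rounded here. The deposited TPM values of the same files were used only for alternatives, and the TPM scores of the authors' merged table, which sum each gene once per listed transcript, were not used beyond its identifiers and symbols. Versions, annotation release and strand setting are not given in the sources used here. Sequences came from RefSeq windows, and positions and exon overlaps from GENCODE M21.

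The test was edgeR 4.0.16's two-sided quasi-likelihood test (R 4.3.3) with TMM factors, edgeR's filter for low counts over the 3 groups and 1 mean per group, after a check on simulated data. The filter kept 15706 genes with 99.9% of the counts. Standard errors of log2 fold changes had a median over these genes of 0.141 for vehicle against WT and 0.14 for Igfbp2 against vehicle. Counts per kilobase were taken over RSEM's effective lengths. The p-values set each difference between groups against the spread between these libraries, which may be in part technical. Alternatives used DESeq2 1.42.0, limma 3.58.1 on log2(TPM + 1) and log2(TPM + 0.1), library totals, other filters, fewer libraries and a replicate block.

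The members and lists were chosen with earlier results of these data known. The values of 1 member are not reported here. Values in each library are given for Fn1, for the 6 called genes that rose most and the 6 that fell most in each of the first 2 comparisons among those that averaged 2 CPM or more, and for the 5 genes highest per kilobase. From each pathway list, the gene that rose most and the gene that fell most are named. WT values for Lama3, Col4a3, Col4a4, Col4a6, Col5a2 and Col6a3, and all values for Lama5, are given by library because 1 or 2 WT libraries or a neighbouring gene bear on them. That choice was made after their values were seen.

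The methods state that vehicle and Igfbp2 cultures came from the same pups, by which replicate numbers would pair them. The Y-linked sums, 105 to 116 CPM with vehicle and 7.80 to 9.18 CPM with Igfbp2, go against this pairing as the libraries are labelled. Values with the replicate block therefore add no support to those without it. Deviations from the group means correlated at -0.138 to 0.136 between same-numbered libraries (4 pairs) and at -0.407 to 0.443 between the others (12 pairs). No 2 libraries of a group were alike within sampling noise, the closest pair having a chi-square of 4.63 per degree of freedom.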

Additional observations from a re-analysis of the deposited data

Results flagged for a closer look

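In 14 of the 147 groups of 4 libraries examined, 1 library stood apart from the other 3 by Dixon's test, in which its gap to the nearest library over the range of the group passed the 95% critical value for 4 values. For independent groups of normally distributed values, chance gives this in about 5%. The groups here share libraries and the share over all genes was not computed, so the count is not read as a trait of these genes. Fn1 read 114 CPM in WT replicate 4 against 9.39 to 19.99 CPM in the other WT libraries, Col2a1 41.09 CPM against 9.55 to 12.4 CPM, and Col6a3 4.899 CPM against 0.324 to 0.516 CPM. In WT replicate 3, Col9a1 read 21.51 CPM against 41.8 to 43.9 CPM and Col3a1 0.2868 CPM against 0.0540 to 0.0910 CPM.

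Vehicle replicate 4 stood apart 5 times. Fn1 read 29.06 CPM there against 16.9 to 18.9 CPM in the other vehicle libraries, Col12a1 83.72 CPM against 45 to 51.4 CPM, and Lama3 5.969 CPM against 3.05 to 3.4 CPM. Lama2 read 2.686 CPM against 1.74 to 1.89 CPM, and Col27a1 was low there, at 7.797 CPM against 8.65 to 8.8 CPM. Col16a1 read 47.24 CPM in vehicle replicate 3 against 36.9 to 38.5 CPM, and Col1a2 0.6289 CPM in vehicle replicate 2 against 0.697 to 0.709 CPM. With Igfbp2, Col5a1 read 49.28 CPM in replicate 1 against 58.5 to 59.2 CPM, and Col2a1 2.799 CPM in replicate 4 against 1.83 to 1.92 CPM.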

How the results depend on the processing

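Of the calls, 29 of 34 for vehicle against WT, 13 of 24 for Igfbp2 against vehicle and 34 of 36 for Igfbp2 against WT held whichever library was left out. Under the alternatives, 10, 1 and 20 held in every one that tested the gene. A gene that the filter of an alternative removed was not counted as lost there. At a mean of at least 5 CPM, for example, Col3a1, Lama2 and Col9a2 were not tested. Leaving out 1 library gave 15 to 21 genes higher and 14 to 17 lower, 12 to 23 and 1 to 6, and 22 to 25 and 12 to 13 in the same order, and 8254 to 9406, 2294 to 4872 and 9192 to 10031 calls over all genes. The values that moved most for Igfbp2 against vehicle were those on other scales. On library totals, 11 genes were higher and 7 lower, with 5906 calls over all genes. On log2(TPM + 1), 6 were higher, with 6354 calls over all genes, and on log2(TPM + 0.1), 4 were higher and 7 lower, with 6519. In these settings the median of all genes was -0.24, -0.30 and -0.42, against 0.04. Against it, the changes of Col16a1 (-0.018, -0.021), Agrn (-0.24, -0.25) and Lamb2 (-0.019, -0.022) on the TPM scales, which turned below 0, were still above the median of all genes.

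A mean of at least 5 CPM, which leaves fewer genes to test, gave 11 genes higher for vehicle against WT, 13 higher for Igfbp2 against vehicle, and 15 higher and 7 lower for Igfbp2 against WT. The study's own test, on TPM without logs, gave 4 higher and 6 lower, 2 higher and 1 lower, and 11 higher in the same order, with 4329, 2149 and 5592 calls over all genes, and put Col16a1 at -0.0047 and Agrn at -0.22 with Igfbp2. With only the 8 Ncf1-/- libraries, 27 were higher and 5 lower with Igfbp2, with 5709 calls over all genes. Without WT replicates 3 and 4, 8 were lower with Igfbp2, with 6028 calls over all genes, and Fn1 turned to 0.95 for vehicle against WT. The replicate block, also fitted without the WT libraries, gave 28 higher and 4 lower, with 5434 calls over all genes. Of the 47 genes tested there, it called 8 that were not called with all 12 libraries and lost 0, and all of the 8 but Col6a3 were also called on the 8 libraries without the block. Apart from scaling, the cause of these changes was not tested. Genes under about 1 CPM, such as Col15a1, Col28a1 and Col1a2, rest on few counts.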
